A study of Mus musculus with 6 samples.

Results

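The 10 genes described here encode proteins that goblet cells of the gut secrete into mucus or use to fold and release it. They were chosen by name from the 55849 rows of the deposited tables, with earlier results of the same contrast known, so their differences between the genotypes are given as a description and not as independent evidence. All 10 were found. They are the lectin Zg16, the mucus protein Fcgbp, the trefoil factors Tff1, Tff2 and Tff3, the protein disulfide isomerase family member Agr2, the Kazal-type protein Spink4, and the intracellular proteins Bcas1, Sytl2 and Fer1l6, so not every member is itself secreted.

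The descending colon of 12-week-old, untreated mice gave 6 RNA libraries: 3 of wild-type C57BL/6 and 3 of Muc2-/-. The strain background and allele of the Muc2-/- mice are not described in the labels, nor is whether a library holds 1 animal or several. Sample titles mention crypts whereas the protocols describe colon tissue, and smooth muscle transcripts were found in every library. Libraries are named below by genotype and number. In bulk RNA, fewer cells of a type and less RNA per cell cannot be told apart.

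Goblet cells fill their granules with the gel-forming mucin Muc2, which is folded in the endoplasmic reticulum, O-glycosylated in the Golgi and released by exocytosis. Other secreted proteins enter the same mucus. Zg16 binds Gram-positive bacteria, Fcgbp is a large protein with repeated von Willebrand factor type D domains, and Tff3 is a small peptide that promotes epithelial repair. Agr2 resides in the endoplasmic reticulum and takes part in making Muc2.

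The 5 genes Zg16, Fcgbp, Tff3, Bcas1 and Fer1l6 were low in wild-type 1 and 2 and high in wild-type 3 and in all 3 Muc2-/- libraries. Agr2 and Spink4 did not share this split of the wild-type libraries. None of the 8 members with enough counts was called between the genotypes by edgeR's quasi-likelihood test over all genes, where 0.124% of genes were called in either direction (0.106% higher and 0.0186% lower). At an unadjusted p under 0.05 there were 2 members, Spink4 and Sytl2, both higher (21.0% of all genes tested were at that level, 8.23% higher). DESeq2 called the same 2 higher (4.09% of genes), and limma-voom called 0.

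Muc2 itself, the targeted gene, stood at 2480, 6977 and 2629 CPM (counts scaled to library size) in wild-type 1, 2 and 3. Muc2-/- 1, 2 and 3 held 757, 1021 and 942 CPM. Its highest library, wild-type 2, was thus 1 of the 2 in which Zg16 and its companions were low. Without a description of the deleted segment, the reads left in Muc2-/- cannot serve as a check of the labels.

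Zg16 (chromosome 7, 126649328 to 126686500, minus strand, in the coordinates of the count table, as are all gene positions here) had the widest spread of the members within wild-type. It was at 106, 229.6 and 4959 CPM (wild-type 1, 2 and 3) against 10744, 11756 and 6682 CPM (Muc2-/- 1, 2 and 3). Wild-type 3 was 46.7-fold above wild-type 1 and 21.6-fold above wild-type 2. The groups did not overlap, but the step within wild-type was larger than the step from wild-type 3 to the Muc2-/- mean, which was 1.96-fold. The means were 1765 ± 2767 and 9727 ± 2685 CPM (SD, n = 3 each), and the log2 fold change was 2.46 (SE 1.28). In the wild-type 3 library Zg16 alone took 0.511% of all counts, against 0.0117% in wild-type 1.

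Fcgbp (chromosome 7, 27770661 to 27820287) was at 479, 449 and 3607 CPM (wild-type 1, 2 and 3) against 5608, 4904 and 4009.9 CPM (Muc2-/- 1, 2 and 3). The 3 mutant libraries lay above all wild-type libraries, and wild-type 3 lay close below Muc2-/- 3. The log2 fold change was 1.68 (SE 0.80). Its near copy in the table, 9530053A07Rik, was at 0.775 CPM or less in every library, far below Fcgbp in all 6 libraries.

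The table of RefSeq promoters (GRCm38.p6) held 2 of the 10 members, and these 2 fall on either side of the pattern: Fcgbp, which split the wild-type libraries, and Agr2, which did not. The 250 bases before each start are shown 5′ to 3′ on the plus strand, the strand of both genes, with motif matches in capitals. The windows are chr7:28070986-28071235 and chr12:35992675-35992924.
Fcgbp: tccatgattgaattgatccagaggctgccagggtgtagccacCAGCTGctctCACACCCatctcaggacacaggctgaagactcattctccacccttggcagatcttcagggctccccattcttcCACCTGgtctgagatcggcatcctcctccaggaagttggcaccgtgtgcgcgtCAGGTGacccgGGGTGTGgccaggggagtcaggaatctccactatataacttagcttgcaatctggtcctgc
Agr2: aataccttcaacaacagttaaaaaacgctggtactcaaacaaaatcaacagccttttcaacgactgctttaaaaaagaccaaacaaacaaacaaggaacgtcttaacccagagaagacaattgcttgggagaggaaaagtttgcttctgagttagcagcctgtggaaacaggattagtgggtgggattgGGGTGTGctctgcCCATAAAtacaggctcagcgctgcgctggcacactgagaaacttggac

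Both windows held the letters GGGTGTG, of the kind KLF4 binds, with the upstream end of a match 61 bases before the start in each and a second match, as CACACCC, 198 bases before the start of Fcgbp. These letters occur in 6.93% of 32851 such windows. Fcgbp held 3 matches to the E-box form CAGNTG, which ATOH1 and other factors bind and which 44.8% of windows hold, and Agr2 held none. Agr2 held 1 match to TTTATNG, of the kind CDX2 binds (9.81% of windows), and Fcgbp held none. TGTTTAC (FOXA, 3.17% of windows), TATAAA (12.4%) and GTTAAT (HNF1, 6.43%) were in neither window. Both strands were searched, and no match overlapped another. A match describes these letters and does not show binding.

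The trefoil factor genes lie side by side on the minus strand of chromosome 17, within 39972 bp from the start of Tff3 (31344280) to the end of Tff1 (31384251). Tff3, the intestinal member, was at 75.6, 80.2 and 1440.0 CPM (wild-type 1, 2 and 3). It was at 2267, 3161 and 1342 CPM (Muc2-/- 1, 2 and 3). Wild-type 3 was 19.1-fold above wild-type 1 and lay above Muc2-/- 3, so the groups overlapped. The log2 fold change was 2.08 (SE 1.10).

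Tff2 (31360023 to 31363256) and Tff1 (31380369 to 31384251), which are mainly made in the stomach, did not pass the filter on low counts. Tff1 had 0 counts in all 6 libraries, which allows up to 0.143 to 0.198 CPM per library (3 counts, counting error only). Wild-type 1, 2 and 3 held 0, 9 and 0 counts of Tff2, and Muc2-/- 1, 2 and 3 held 1, 7 and 0. The exact Poisson 95% interval of the 9 counts was 4.12 to 17.1 and that of the 7 counts 2.81 to 14.4, which cover counting error only. The neighbours of Tff3 were thus at or near 0 in the libraries where Tff3 was highest as well as where it was lowest. Of 13 genes listed for gastric epithelium 6 had 0 counts in every library, the gastric mucin Muc5ac among them, and 1 passed the filter, the protease Ctse.

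Spink4 (chromosome 4, 40920052 to 40931395), whose protein carries a Kazal-type protease inhibitor domain, ran the other way within wild-type. It was at 882, 1104 and 497 CPM (wild-type 1, 2 and 3), so wild-type 3 was the lowest. In Muc2-/- 1, 2 and 3 it was at 1610.2, 3371 and 1401 CPM, all above wild-type. Its log2 fold change was 1.36 (SE 0.45). The mutant mean of 2127 ± 1082 CPM was 4.28-fold above wild-type 3 (SD, n = 3). Muc2-/- 2 was the highest library, and without it the log2 fold change was 0.89.

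Agr2 (chromosome 12, 36042906 to 36054086) was at 845, 1270.4 and 955 CPM (wild-type 1, 2 and 3) against 1136, 883 and 1026 CPM (Muc2-/- 1, 2 and 3). The groups overlapped throughout. The log2 fold change was -0.01 (SE 0.26), with a 95% interval of -0.62 to 0.60. Scaled to epithelial genes the log2 fold change was -0.60 (SE 0.31). Its relative Agr3 did not pass the filter, at 1.56 CPM or less in every library.

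The intracellular members differed among themselves. Bcas1 (chromosome 2, 170188911 to 170269765, minus strand) was at 26.4, 32.9 and 165 CPM (wild-type 1, 2 and 3) against 176, 176 and 153 CPM (Muc2-/- 1, 2 and 3). Fer1l6 (chromosome 15, 58381897 to 58536941), a ferlin with several C2 domains, was at 7.09, 9.28 and 71.5 CPM (wild-type) against 80.7, 46.1 and 69.9 CPM (Muc2-/-). For both, wild-type 3 lay inside the range of the mutant libraries, and the groups overlapped. Their log2 fold changes were 1.17 (SE 0.64) and 1.16 (SE 0.80). The 2 antisense genes within Bcas1 had 16 and 5 counts over all libraries, against 12649 for Bcas1.

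Sytl2 (chromosome 7, 89951460 to 90059927), a synaptotagmin-like effector of Rab27 that docks granules at the membrane, varied less within wild-type than the split genes. It was at 39.3, 30.0 and 51.9 CPM (wild-type 1, 2 and 3) against 87.0, 75.8 and 78.9 CPM (Muc2-/- 1, 2 and 3). The groups did not overlap. The means were 40.4 ± 11.02 and 80.6 ± 5.81 CPM (SD, n = 3 each), and edgeR gave a log2 fold change of 1.00 (SE 0.23) with an adjusted p of 0.103. Its relatives were not called: Sytl1 had a log2 fold change of -0.17 (SE 0.35) and Sytl4 of 0.22 (SE 0.25).

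**Figure D1:**
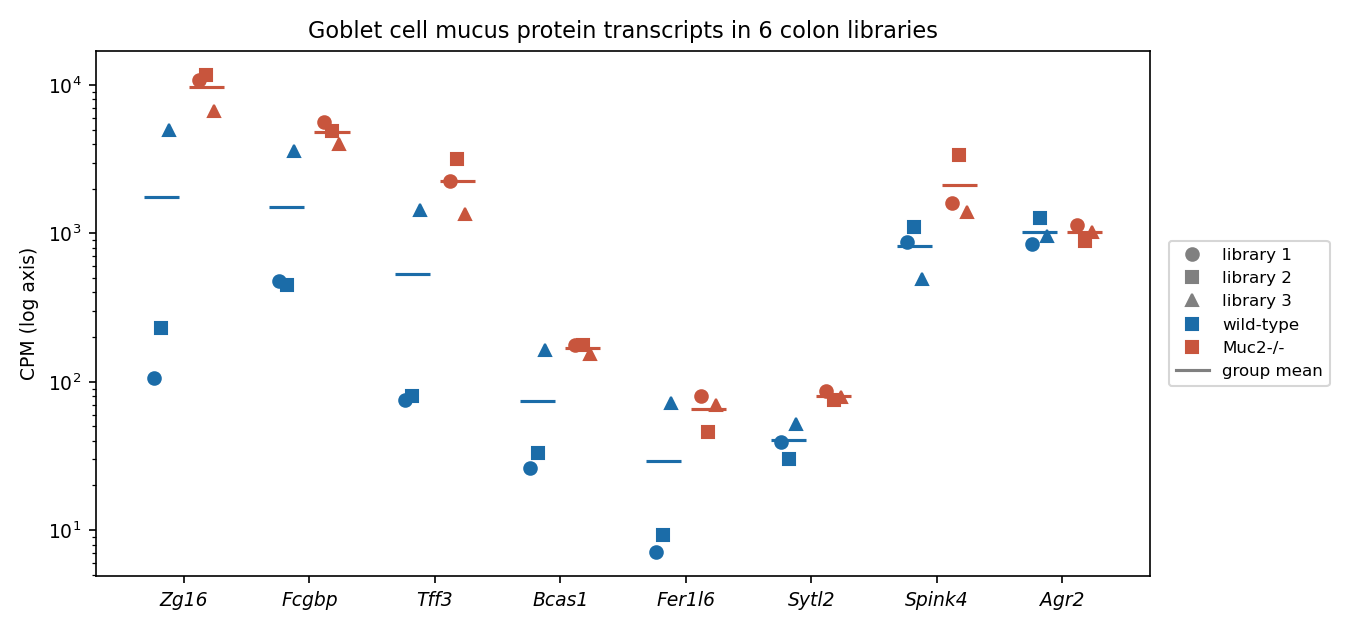
CPM on a log axis for the 8 members with enough counts, with wild-type libraries in blue and Muc2-/- libraries in red, a marker shape for each library number and a bar for each group mean. For Zg16, Fcgbp, Tff3, Bcas1 and Fer1l6 the triangle of wild-type 3 stands with the mutant libraries and apart from wild-type 1 and 2, while Agr2 is level and Spink4 is lowest in wild-type 3.

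Of the 8 tested members, 4 had groups that did not overlap, all higher in Muc2-/- (Zg16, Fcgbp, Spink4 and Sytl2). Over all genes tested 13.3% did not overlap in that direction and 28.5% in either. A log2 fold change above 1 was seen in 6 members and in 5.27% of all genes. The median log2 fold change of the 8 was 1.27, against -0.01 over all genes, and 7 were above 0. This median was 2.76 without wild-type 3, 0.71 with epithelial scaling and 0.16 with a smooth muscle score as covariate. With epithelial scaling 3 members were above 1, Zg16 at 2.01, Tff3 at 1.58 and Fcgbp at 1.198, while Spink4 was at 0.60 and Sytl2 at 0.37. With that scaling the median over all genes was -0.66, and the share of all genes above 1 is not given here. The 7 also stayed above 0 when libraries were scaled by RLE or upper-quartile factors, by total alone or to epithelial genes, while Agr2 changed sign with RLE factors. Tff1 and Tff2 are outside these counts.

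The spread within wild-type was wide for 5 of the 8 genes. The range of log2 CPM over the 3 wild-type libraries was 5.54 for Zg16, 4.25 for Tff3, 3.31 for Fer1l6, 3.01 for Fcgbp and 2.64 for Bcas1. Among all genes tested the median range was 0.59, and 0.0993% had a wider range than Zg16 and 2.51% a wider one than Bcas1. Spink4 (1.15), Sytl2 (0.79) and Agr2 (0.59) lay nearer to that median. In Muc2-/- the range was 1.24 for Tff3, 0.81 for Zg16, 0.81 for Fer1l6, 0.48 for Fcgbp and 0.21 for Bcas1, where the median over all genes was 0.72. Each of the 5 thus varied less across the mutant libraries than across wild-type, and 3 of them lay above the median. Genes at least 4-fold higher in wild-type 3 than in both other wild-type libraries made up 0.484% of those tested, and 5 members were among them.

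**Figure D2:**
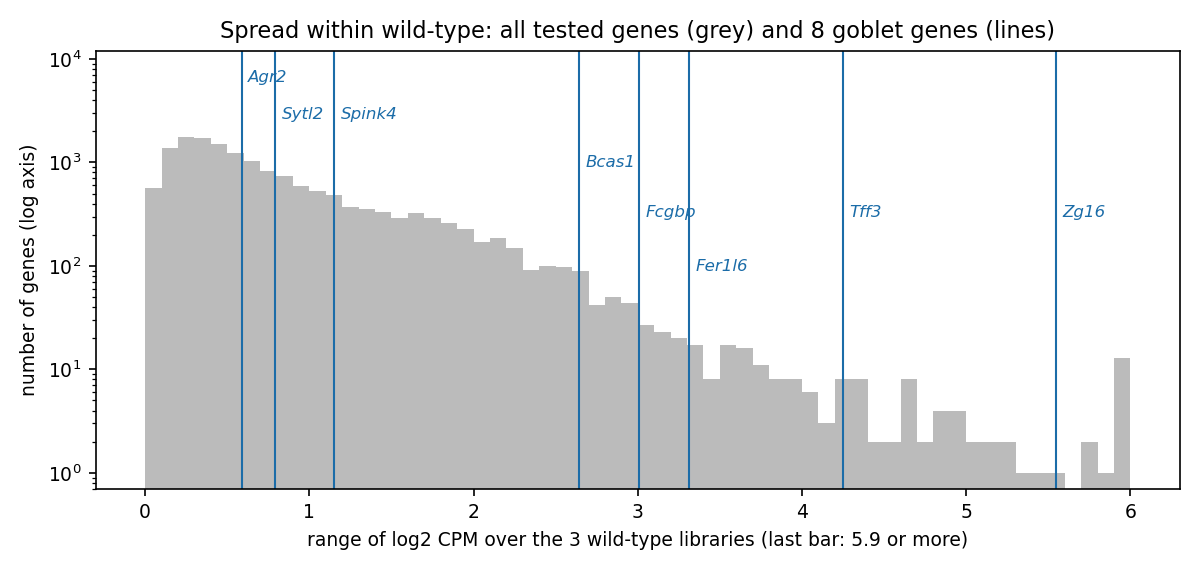
Histogram on a log count axis of the range of log2 CPM over the 3 wild-type libraries for the 16107 genes tested, with a blue line at each of the 8 members. Zg16 at 5.54 and Tff3 at 4.25 lie in the far tail, and Agr2 at 0.59 lies at the median.

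Ratios between genes within a library do not depend on how libraries are scaled. On the deposited FPKM, which are per length, Zg16 was 0.129, 0.186 and 5.33 times Agr2 in wild-type 1, 2 and 3, and 9.72, 13.7 and 6.69 times in Muc2-/- 1, 2 and 3. Tff3 was 0.234, 0.165 and 3.95 times Agr2 in wild-type and 5.23, 9.38 and 3.43 times in Muc2-/-. Spink4 was 2.82, 2.35 and 1.41 times Agr2 in wild-type and 3.84, 10.3 and 3.70 times in Muc2-/-. The order of the most abundant members changed accordingly. In wild-type 1 and 2 Spink4 led at 1793 and 2276 FPKM, followed by Agr2 at 635 and 968. In wild-type 3 Zg16 led at 4011 FPKM and Tff3 followed at 2969.7, with Spink4 at 1059.

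Against Muc2, the gel to which these proteins are added, the ratio moved further. The FPKM of Zg16 was 0.474, 0.364 and 20.9 times that of Muc2 in wild-type 1, 2 and 3, and 157, 127 and 78.5 times in Muc2-/- 1, 2 and 3. That of Agr2 was 3.67, 1.96 and 3.92 times that of Muc2 in wild-type and 16.2, 9.32 and 11.7 times in Muc2-/-. Lower Muc2 counts in the mutant are part of both ratios.

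All 10 members together made up 0.271%, 0.341% and 1.21% of all counts (wild-type 1, 2 and 3) against 2.09%, 2.14% and 1.44% (Muc2-/- 1, 2 and 3). Over the 6 libraries the log2 CPM of Zg16 had a Pearson r of 0.989 with Fcgbp, 0.991 with Tff3, 0.992 with Bcas1 and 0.961 with Fer1l6. With Spink4 it was 0.418 and with Agr2 -0.03. These values describe 6 libraries that share a composition, and the same step at wild-type 3 enters each of them.

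The genes outside the list most like Zg16 over the 6 libraries were Lrrc26 (r = 0.996), a subunit of large-conductance potassium channels, the sorting nexin gene Snx4 (0.996) and the calpain gene Capn9 (0.995). Lrrc26 was at 24.4, 33.7 and 79.2 CPM (wild-type 1, 2 and 3) against 113, 123 and 98.0 CPM (Muc2-/-). Capn9 was at 10.1, 13.4 and 54.1 CPM (wild-type) against 58.3, 70.0 and 51.2 CPM (Muc2-/-). Most like Fcgbp were Sval1 (0.995), the anion channel gene Best2 (0.993) and the sialyltransferase gene St6gal1 (0.993). Best2 was at 23.4, 17.3 and 135 CPM (wild-type) against 194, 159 and 111 CPM (Muc2-/-). Most like Sytl2 were Ly6g (0.995), Gtpbp6 (0.990) and the interleukin 1 receptor antagonist gene Il1rn (0.989). Each set was the top 3 of 10907 candidate genes, ranked over 6 points. A high r does not mean a step of like size. Snx4 was at 46.4, 47.8 and 64.1 CPM (wild-type 1, 2 and 3) against 68.3, 70.8 and 64.8 CPM (Muc2-/-). Gtpbp6 was at 5.59, 5.47 and 5.91 CPM (wild-type) against 6.67, 6.48 and 6.55 CPM (Muc2-/-).

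Transcripts of smooth muscle and of enteric neurons and glia moved opposite to the split genes. The 16 listed muscle genes, none of them at 0 in all libraries, summed to 30279, 17673 and 8512 CPM (wild-type 1, 2 and 3) and to 6489, 6554 and 3577 CPM (Muc2-/- 1, 2 and 3). All 16 had a negative log2 fold change, and 0 were called by edgeR (14 at an unadjusted p under 0.05). Over all 16107 genes tested 8198 were negative, and 2053 were lower at an unadjusted p under 0.05. From wild-type 1 to wild-type 3 the muscle sum thus went down while Zg16 went up, and Agr2 did not follow either. The 10 genes of enteric neurons and glia summed to 337, 207 and 77.9 CPM (wild-type 1, 2 and 3) and to 59.5, 71.1 and 48.1 CPM (Muc2-/- 1, 2 and 3), and 8 were lower at an unadjusted p under 0.05. Over the 6 libraries Zg16 had a Pearson r of -0.92 with the muscle score and -0.96 with the neuron and glia score, against -0.07 and -0.09 for Agr2. The part of muscle, neurons and glia in these values was not tested apart from the muscle covariate fit. The 10 pan-epithelial genes, which include Epcam and Krt8, summed to 10262, 16154 and 19395 CPM (wild-type) and to 22731, 38578 and 24037 CPM (Muc2-/-). Divided by the geometric mean of these epithelial genes, Zg16 stood at 0.158, 0.226 and 4.84 in wild-type 1, 2 and 3 and at 9.28, 6.58 and 5.23 in Muc2-/-, so wild-type 3 again stood apart from wild-type 1 and 2. Fcgbp stood at 0.714, 0.442 and 3.52 in wild-type and at 4.84, 2.74 and 3.14 in Muc2-/-, so there its groups overlapped. Spink4 (1.32, 1.09 and 0.484 against 1.39, 1.89 and 1.10) overlapped on that scale too, as did Sytl2 (0.0586, 0.0295 and 0.0506 against 0.0752, 0.0424 and 0.0617). Of the 4 members whose groups did not overlap in CPM, 1, Zg16, did not overlap on this scale. The share of all genes without overlap on this scale is not given here, so that count has no background.

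**Figure D3:**
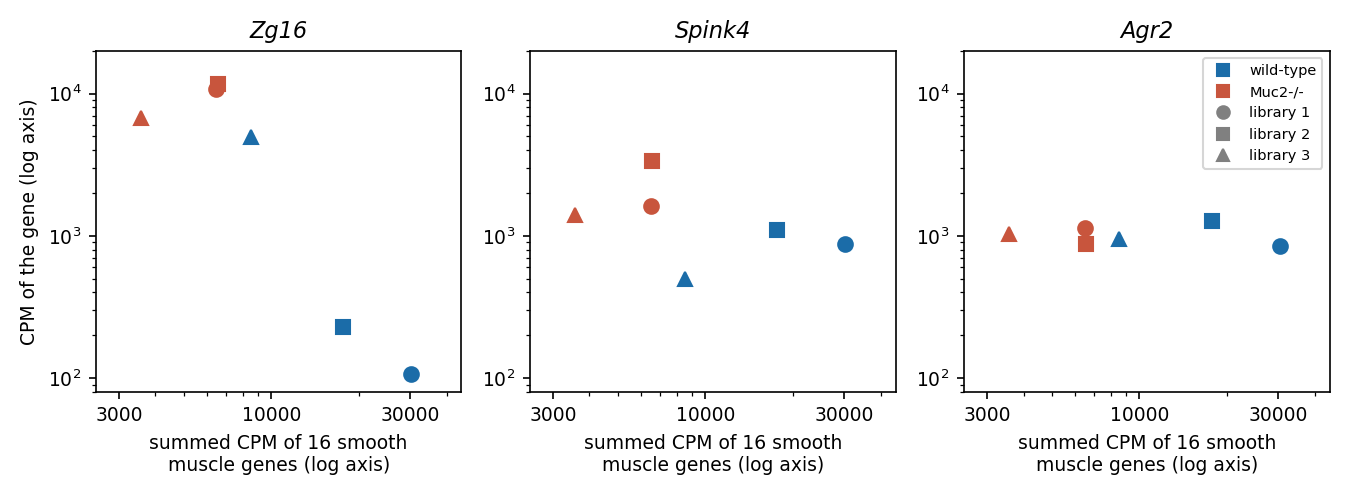
CPM of Zg16, Spink4 and Agr2 against the summed CPM of 16 smooth muscle genes, both on log axes, with 1 point per library (blue wild-type, red Muc2-/-, shape by library number). Zg16 is lowest in wild-type 1 and 2, which have the highest muscle sums, and Agr2 stays between 845 and 1270.4 CPM.

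The fitted fold changes of the split genes moved most when wild-type 3 was left out, and were larger without it. Without it edgeR called 6 members higher (1.62% of all genes were called higher and 5.68% lower): Zg16 at a log2 fold change of 5.86, Tff3 at 4.87, Fcgbp at 3.39, Fer1l6 at 3.01, Bcas1 at 2.51 and Sytl2 at 1.23. Without wild-type 1 or wild-type 2 these were smaller than with all libraries, at 1.90 and 1.94 for Zg16, and no member was called. Nor was one without a single Muc2-/- library. The share of all genes called higher was 0.00607% without wild-type 1, 0% without wild-type 2, and 0.0238%, 0.107% and 0.00597% without Muc2-/- 1, 2 and 3, and 0.00596% were called lower without Muc2-/- 1. With the muscle score as a covariate Zg16 had a log2 fold change of 0.17, Fcgbp 0.15 and Tff3 0.18, Bcas1 turned to -0.32 and Fer1l6 to -0.64, while Spink4 had 2.35 and Sytl2 0.70. The muscle sums of the groups did not overlap, so in that fit the covariate and the genotype cannot be told apart.

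**Figure D4:**
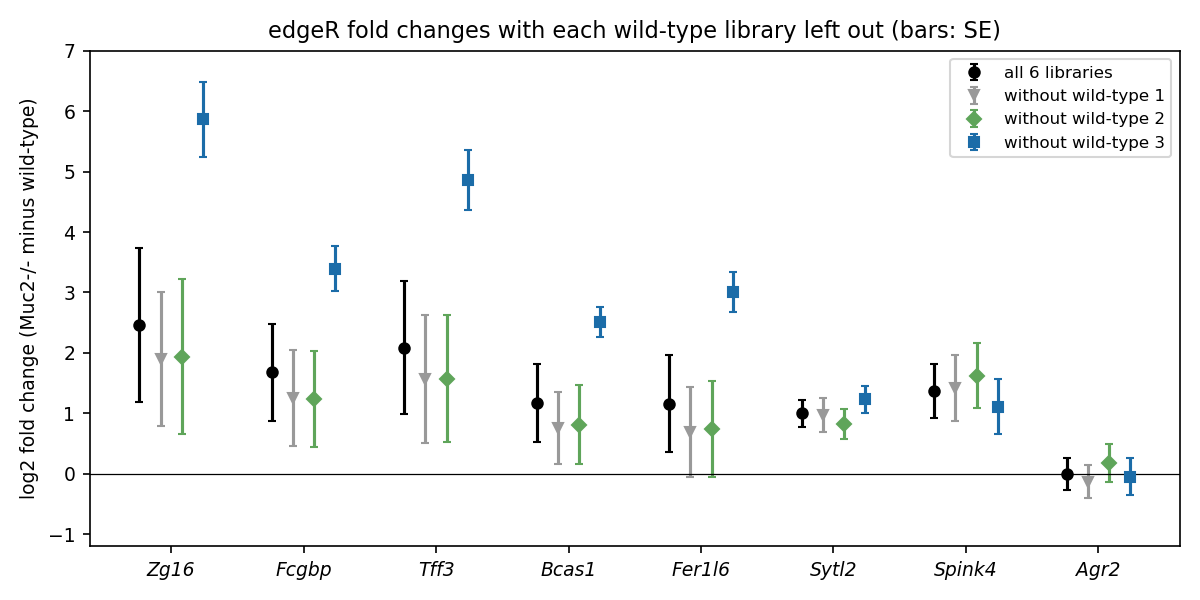
Log2 fold changes of Muc2-/- against wild-type from edgeR for 8 members, with all 6 libraries and with each wild-type library left out in turn, and bars of 1 SE. Leaving out wild-type 3 moves Zg16 from 2.46 to 5.86 and Tff3 from 2.08 to 4.87, whereas Sytl2 moves from 1.00 to 1.23 and Spink4 from 1.36 to 1.11.

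Other goblet cell genes were read from 5 lists, Muc2 left out. In them 7 other secreted proteins, 10 transcription factors, 13 endoplasmic reticulum genes, 12 O-glycosylation genes and 20 exocytosis genes were tested. Of these edgeR called 0 (0.124% of all genes tested in either direction), while DESeq2 called 8 higher (4.09% of all genes). At an unadjusted p under 0.05 in edgeR, 8.23% of all genes tested were higher. Among other secreted proteins (Muc2 again left out, 7 tested, median log2 fold change -0.42), 3 were above 0 and 4 below, with 1 higher and 0 lower at an unadjusted p under 0.05. Clca1, a secreted protease of mucus, followed the split within wild-type, at 432, 354 and 5867 CPM (wild-type 1, 2 and 3), and stood at 4845, 1807 and 2974 CPM (Muc2-/- 1, 2 and 3). Its mutant libraries all lay below wild-type 3, unlike those of Zg16. Retnlb, a bactericidal peptide gene named after its values were seen, ran opposite, at 62.4, 221 and 2.62 CPM (wild-type) against 161, 1482 and 272 CPM (Muc2-/-).

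The goblet cell transcription factors did not show the split at a like size. Of 10 tested, 8 were above 0 and 0 passed an unadjusted p of 0.05 (median 0.28). Klf4 was at 430.3, 804 and 874 CPM (wild-type 1, 2 and 3) against 1002, 397 and 937 CPM (Muc2-/-), and Xbp1 at 190.3, 193 and 214 CPM and at 295, 180.4 and 313 CPM. The lineage factors Atoh1 and Spdef, named after their values were seen, were at 32.9, 47.1 and 67.4 CPM and at 54.8, 126 and 48.9 CPM (wild-type 1, 2 and 3) against 72.3, 68.9 and 57.0 CPM and at 69.7, 147 and 73.2 CPM (Muc2-/-). Spdef was thus highest in wild-type 2 and Muc2-/- 2, where Muc2 was also the highest of its group.

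Genes that fold and glycosylate secreted proteins mostly had positive fold changes, none past the threshold. Scaled to epithelial genes, the list medians turned to -0.19 for endoplasmic reticulum genes, -0.05 for O-glycosylation genes, -0.34 for the transcription factors and -0.35 for exocytosis genes, while the median over all genes moved to -0.66. Of 13 tested genes of endoplasmic reticulum and disulfide handling 12 were above 0, 6 at an unadjusted p under 0.05 (median 0.47). Over all genes 7909 of 16107 were above 0 and 8.23% were higher at that level. The chaperone Hspa5 was at 627, 536 and 478 CPM (wild-type 1, 2 and 3) against 709, 1267 and 839 CPM (Muc2-/-) (log2 fold change 0.78, SE 0.29), and the disulfide isomerase Pdia3 had 0.75 (SE 0.26). Of 12 O-glycosylation genes 9 were above 0, 5 at an unadjusted p under 0.05 (median 0.58). C1galt1, which extends the first sugar of O-glycans, was at 136, 188 and 166 CPM (wild-type) against 302, 322 and 320.3 CPM (Muc2-/-) (log2 fold change 0.94, SE 0.20). Gcnt3, a branching enzyme, overlapped between the groups (0.51, SE 0.51). The summed CPM of 10 leukocyte genes, which include secretory plasma cells' Jchain, also stood higher in Muc2-/-, at 965 to 1139 against 204 to 268. Such a sum rests mostly on its abundant genes. The mean log2 CPM of the 9 tested was 2.58, 1.52 and 0.945 (wild-type 1, 2 and 3) against 4.49, 2.68 and 5.02 (Muc2-/- 1, 2 and 3). Muc2-/- 2 thus lay close to wild-type 1. Of the 9, 7 had a log2 fold change above 0 and 2 below. EdgeR called 1 of them higher (adjusted p 0.0286), where 0.106% of all genes tested were called higher. At an unadjusted p under 0.05, 4 were higher and 0 lower, against 8.23% higher over all genes. The part of leukocytes in these values was not tested.

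Among 20 tested genes of granule exocytosis 12 were above 0, 5 at an unadjusted p under 0.05 (median 0.28). Of all genes tested 8.23% were higher at that level. The transcripts of the Rab27 proteins that Sytl2 binds were higher in every mutant library than in any wild-type library. Over all genes tested 13.3% did not overlap in that direction. Their values on the epithelial scale, where Sytl2 overlapped, are not given here. Rab27a, named after its values were seen like Rab27b, was at 30.0, 24.8 and 48.4 CPM (wild-type 1, 2 and 3) against 71.7, 53.1 and 75.6 CPM (Muc2-/-), and Rab27b at 36.9, 30.3 and 60.2 CPM and at 88.8, 66.7 and 79.7 CPM. The most abundant genes of the list were Vamp8, a vesicle fusion protein (log2 fold change 0.72, SE 0.40), and Nlrp6 (0.36, SE 0.30). Among the ferlins related to Fer1l6, Fer1l4 was at 3.32, 6.72 and 1.91 CPM (wild-type) against 19.5, 42.1 and 41.3 CPM (Muc2-/-) (log2 fold change 3.11, SE 0.51, edgeR adjusted p = 0.0830). Myof had 0.97 (SE 0.26) and Dysf -0.64 (SE 0.43). Neither Fer1l4 nor Myof was raised in wild-type 3 as Fer1l6 was, with Myof at 34.9, 30.3 and 40.9 CPM (wild-type 1, 2 and 3).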

How the data were processed

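The authors deposited raw whole-number counts for each gene. They also deposited FPKM, which scale fragments for transcript length and library size. The submitters' processing notes list featureCounts 1.5.0-p3, HISAT2 2.0.5, DESeq2 1.20.0 and StringTie 1.3.3b, and the build mm10, but not what each was used for. Annotation and strand setting are not given in the sources used here. The build named is not the one whose coordinates the count table carries: all 10 members had the gene width of GENCODE M21 (GRCm38), and 1 of them had the same start and end.

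Libraries were grouped by sample title. The test was edgeR 4.0.16 (R 4.3.3), with TMM factors, its default filter (minimum count 10, total 15) and genotype as the sole term of the quasi-likelihood model. P-values of 16107 genes were adjusted by Benjamini-Hochberg, with a threshold of 0.05. CPM are counts scaled by the library total times the TMM factor. SD are over 3 libraries. Log2 CPM used a prior count of 2. Total counts ran from 16395432 to 20336459. Replicates differed by a chi-square of 25.0 to 148 per degree of freedom over genes, so each was kept as a separate sample. Where a p-value is given it tests the genotype term against the spread between these libraries.

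The members, the gene lists and the tests were chosen with earlier results of these data known. The genes named were the members, Muc2, members' relatives in the lists, list genes past the threshold or else the 2 with the highest mean CPM, and for Zg16, Fcgbp and Sytl2 the 3 protein-coding genes, at a mean of 5 CPM or more, with the highest correlation over the 6 libraries. Prac1 and Fcgbpl1 were not found under those names. The 20 alternatives were RLE, upper-quartile, no and epithelial scaling factors; dropping the filter, or a tighter filter at 50 counts in all with 3 libraries reaching 1 CPM; limma-voom from limma 3.58.1, and DESeq2 1.42.0; limma for FPKM, after adding 1 or 0.1 and taking log2, keeping genes with 3 libraries at 1 FPKM, and with 1 added also keeping all genes; a replicate block; a smooth muscle covariate; each library left out; and, added after seeing the data, 2 libraries left out together. The fit was also run on simulated counts, drawn with the same dispersion for every gene and no outlying library. That setting is unlike the spread between these libraries, so it does not check the fit for the split genes.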

Additional observations from a re-analysis of the deposited data

How the results depend on the processing

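With every alternative the log2 fold changes of Zg16, Fcgbp, Tff3, Spink4 and Sytl2 stayed above 0. Those of Bcas1 (-0.32) and Fer1l6 (-0.64) turned below 0 with the smooth muscle covariate only. Agr2, near 0, was at -0.60 with epithelial scaling and -0.19 without composition factors. It turned above 0 with RLE factors (0.0047), DESeq2 (0.0047), limma-voom (0.00050), limma on FPKM (0.023 in each of 3 fits), the replicate block (0.0021), without wild-type 2 (0.17) and without Muc2-/- 2 (0.10), and ran from -0.14 to 0.17 with single libraries left out. Members called higher were 0 with all libraries, 2 in DESeq2, 1 without a filter (Sytl2), 1 with the replicate block (Sytl2), and from 0 to 6 with single libraries left out; 0 were called lower. Other goblet list genes (Muc2 left out) called higher were 0, 8, 5 and 4 in the same fits and from 0 to 6 with single libraries left out. Over all genes 17 were called higher and 3 lower. DESeq2 called 659 and 1193, and the fit without a filter 384 and 815 of 26830 genes tested. The replicate block called 225 and 448, limma-voom 11 higher, RLE factors 5 lower, no composition factors 7 and 1, and epithelial scaling 1 and 0. Limma called 31 and 8 on log2(FPKM + 0.1), 37 and 9 on log2(FPKM + 1), and 3 and 0 without its filter. The muscle covariate gave 0 and 0, and wild-type 1 and Muc2-/- 2 left out together 1 and 0. Single libraries left out gave 0 to 272 higher and 0 to 954 lower. Epithelial scaling moved the median over all genes to -0.66 and library totals alone moved it to -0.20. The cause was not tested. Whether the replicate numbers pair the libraries was not settled. Deviations of same-numbered libraries correlated at 0.0937, 0.281 and 0.0606, and those of different numbers at -0.247 to 0.0749. Wild-type 1 and 2 correlated best with their own number, but wild-type 3 correlated best with Muc2-/- 1.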

Other observations

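The step at wild-type 3 was also seen in genes outside the goblet cell lists. In wild-type 3, 78 genes were at least 4-fold above both other wild-type libraries, and in 53 of them all 3 Muc2-/- libraries also lay above wild-type 1 and 2. Of the 13 such genes at 100 CPM or more in wild-type 3, 4 were members. The following genes of that set were named after their values were seen. Spink1, a Kazal-type inhibitor like Spink4, was at 11.4, 17.8 and 373 CPM (wild-type 1, 2 and 3) against 539, 416 and 283 CPM (Muc2-/- 1, 2 and 3), the reverse of Spink4 within wild-type. Atp12a, a proton pump subunit, was at 218, 127 and 1263 CPM (wild-type) against 949.7, 211 and 491 CPM (Muc2-/-). Tgm3, a transglutaminase, was at 534, 376 and 2182 CPM (wild-type) against 903, 50.9 and 228 CPM (Muc2-/-), and Slc37a2, a sugar phosphate transporter, at 52.0, 21.6 and 269 CPM and at 47.4, 4.30 and 22.1 CPM. In these last 2 the mutant libraries did not stand with wild-type 3.

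Wild-type 1 had 172 genes at least 4-fold above both other wild-type libraries and wild-type 2 had 42. Wild-type 3 had 280 genes at least 4-fold below both. Mitochondrially encoded genes took from 3.49% to 8.98% of the counts in wild-type, with wild-type 3 the lowest, and from 1.04% to 3.50% in Muc2-/-.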
